A study of Homo sapiens with 4 samples.

Results

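Laminin chains were compared between PC9 and MTAC-P on 4 one-colour arrays, 2 for each line. The set was defined as LAMA1, LAMA3, LAMA4, LAMA5, LAMB1, LAMB2, LAMB3 and LAMC1, each represented by the brightest of its probe sets that GEO's platform annotation pairs with that symbol alone. Of these 8 chains, 7 had such a probe set, out of 18239 genes with one, and LAMA3 was not analysed here. LAMA1 lay under the dim value of 4.14, the 25th percentile of probe set means, so 6 chains were among the 14970 genes tested. PC9 is an established line from a human lung adenocarcinoma whose EGFR gene carries an activating mutation. MTAC-P is, per the labels, a resistant line set up through mild exposure to a TKI, a tyrosine kinase inhibitor. The inhibitor, the parent line, clonality and the presence of drug at harvest are not given in the sources used here. Cells of both lines were grown in DMEM with fetal bovine serum, and total RNA was extracted with Trizol.

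Laminins are secreted trimers of an alpha, a beta and a gamma chain that join in a long coiled coil. The short arms of many laminins link neighbouring trimers into the sheet that underlies epithelia, vessels, muscle and nerve, the basement membrane. The globular end of the alpha chain is the part that integrins and dystroglycan bind on the cell surface. In lung, the alpha5 chain is typical of the basement membrane under epithelium, and the alpha4 chain of vessels and mesenchyme.

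The upstream sequences of 3 genes are shown, because LAMA4 had the largest difference of the chains and LAMB1 and LAMC1 were the chains that had higher values on both MTAC-P arrays. Each is the 250 bases before the start site in RefSeq's promoter table for GRCh38.p14, written 5′ to 3′ on the gene's strand. Capitals mark GGGCGG, the core of the GC box, or its complement CCGCCC.
LAMA4, chr6:112254568-112254817, minus strand: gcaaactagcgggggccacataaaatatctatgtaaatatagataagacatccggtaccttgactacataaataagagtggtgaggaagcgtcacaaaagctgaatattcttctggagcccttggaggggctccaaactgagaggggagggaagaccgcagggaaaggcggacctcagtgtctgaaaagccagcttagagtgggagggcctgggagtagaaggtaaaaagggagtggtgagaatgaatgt
LAMB1, chr7:108003162-108003411, minus strand: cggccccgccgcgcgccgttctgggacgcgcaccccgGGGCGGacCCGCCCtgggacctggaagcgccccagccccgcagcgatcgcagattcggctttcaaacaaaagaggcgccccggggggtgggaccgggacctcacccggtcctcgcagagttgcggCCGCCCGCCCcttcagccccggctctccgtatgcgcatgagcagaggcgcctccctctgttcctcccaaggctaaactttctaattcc
LAMC1, chr1:183023170-183023419, plus strand: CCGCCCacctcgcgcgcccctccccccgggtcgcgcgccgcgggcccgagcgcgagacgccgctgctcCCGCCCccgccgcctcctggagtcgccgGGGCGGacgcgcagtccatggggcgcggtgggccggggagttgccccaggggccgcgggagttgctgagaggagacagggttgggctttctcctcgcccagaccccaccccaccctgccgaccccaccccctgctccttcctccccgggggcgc
The LAMA4 window held 0 matches of GGGCGG on either strand, the LAMB1 window 4, of which a pair overlaps, and the LAMC1 window 3. Of 35116 such windows in the table, 42.6% held at least 1 match and 13.9% at least 3. The G and C share was 48.4% for LAMA4, 70.4% for LAMB1 and 79.6% for LAMC1, against a median of 58.0% over all windows. TATAAA, searched on both strands, was found in none of the 3 windows and in 10.7% of all windows. The table had an entry for 7 of the 8 chains, and their 9 start sites included 8 with a GGGCGG match, so LAMA4 was the chain without one. LAMA5 had the most matches, 5, while LAMA3, LAMB2 and each LAMB3 start site had 1. Whether the matches go with the differences between the lines was not tested. These matches describe the letters only.

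Values are log2 expression values. The epithelial markers EPCAM, CDH1, KRT7, KRT8, KRT18 and KRT19 lay between 10.28 and 14.42 on all arrays. The lung lineage markers NKX2-1, NAPSA, SFTPA1, SFTPB, SFTPC and SCGB1A1 lay between 3.69 and 5.22, low values in both lines. They do not bear out a lung identity, and the origin of the lines was not tested. Over all 14970 genes, limma's adjusted p passed the threshold of 0.05 for 3 genes (0.02%). None of the 6 tested chains was among them. Of the 6, 3 had an unadjusted limma p under 0.05, where 18.9% of all tested genes did, 7.76% with a higher and 11.1% with a lower mean in MTAC-P. The 3 were LAMC1 with a higher and LAMA4 and LAMB2 with a lower mean. The median difference of the 6 chains was 0.15, and that of all tested genes was 0.031. The chains' median turned sign when 1 array was left out, to -0.12 without PC9 replicate 1 and -0.069 without MTAC-P replicate 2. Differences throughout are MTAC-P minus PC9.

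**Figure D1:**
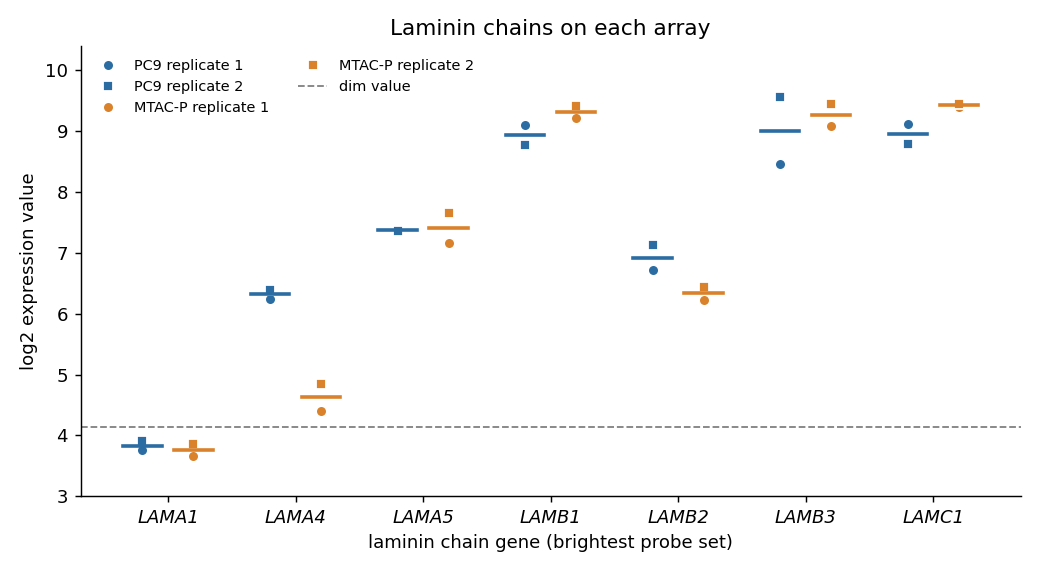
Log2 expression value of each laminin chain on each array, for the brightest probe set, with PC9 in blue, MTAC-P in orange, bars at the means of 2 arrays and a dashed line at the dim value of 4.14. LAMA4 shows the widest gap between the lines, from 6.24 and above in PC9 to 4.85 and below in MTAC-P, whereas the LAMB3 values of PC9 span those of MTAC-P.

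LAMA4 had lower values in MTAC-P. It encodes the alpha4 chain, which has a shortened N-terminal arm. Its PC9 values were 6.24 and 6.39, and its MTAC-P values were 4.41 and 4.85. The lines did not overlap, their nearest arrays lay 1.39 apart, while the duplicates lay 0.15 apart in PC9 and 0.44 in MTAC-P. The means were 6.32 ± 0.11 in PC9 and 4.63 ± 0.31 in MTAC-P (SD, n = 2 each), a 3.22-fold lower level in MTAC-P. The log2 difference of LAMA4 was -1.69 (SE 0.20, 95% interval -2.17 to -1.21, limma adjusted p = 0.0971), which misses the threshold. The MTAC-P mean lies close to the dim value. LAMA4 was 1 of 24 tested genes lower in MTAC-P by at least this much, and means were at least 2-fold lower for 1.62% of tested genes and at least 2-fold apart in either direction for 2.02%.

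The other probe sets of LAMA4 did not show a difference of that size. The second brightest had 5.13 and 4.64 in PC9 and 4.47 and 4.79 in MTAC-P, with overlapping arrays. Its difference was -0.26 (SE 0.22). The next had 4.56 and 4.65 against 4.19 and 4.54, a difference of -0.24 (SE 0.18), and the dimmest lay between 3.75 and 3.86 on all arrays. All 4 probe sets had a lower mean in MTAC-P, and 3 of the 4 lay above the dim value. Averaged over the 4 probe sets, LAMA4 differed by -0.56 (SE 0.15, limma adjusted p = 0.182). The bases each probe set covers are not given in the sources used here, so whether the probe sets read the same transcripts was not tested. The call changed with the setting: LAMA4 passed with a prior variance that follows the level (limma adjusted p = 0.0337). Without PC9 replicate 1 its difference was -1.76. Over its alternatives on the brightest probe set or the mean of all probe sets, the adjusted p ran from 1.9e-07 to 0.424. The 1.9e-07 came from limma with a replicate block, although the labels do not say that replicate numbers pair the arrays. The other LAMA4 probe sets above the dim value, a choice added after seeing the data, were read from the test of each probe set. Over the 36979 probe sets of that test, their limma adjusted p was 0.586 and 0.530.

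LAMA4 is made in tissue mainly by vessel, muscle and other mesenchymal cells, so markers of such cells are given beside it. Of 7 fibroblast markers, 5 lay above the dim value, and COL3A1 and LUM lay under it. The summed linear level of all 7 fibroblast markers, with those under the dim value included, was 135 and 147 in PC9 and 127 and 135 in MTAC-P. Of 6 endothelial markers, 5 lay above the dim value, with sums over all 6 of 152 and 164 in PC9 and 125 and 178 in MTAC-P. Of 5 muscle and nerve sheath markers, DES, MYH11 and SOX10 had a probe set, and all 3 had a higher mean in MTAC-P, by 0.14, 0.31 and 0.077, with sums of 82.0 and 84.9 in PC9 and 93.7 and 93.8 in MTAC-P. The fibroblast markers reached 5.22 at most, the muscle and nerve sheath ones 5.52 and the endothelial ones 5.95, for CDH5 on MTAC-P replicate 2. Many of these markers lay near the dim value of 4.14, so the sums hold much signal of that level. The part of these markers in the LAMA4 difference was not tested. In RNA from whole cultures, fewer cells of a kind and less RNA per cell cannot be told apart.

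By the distance between mean-centred values over the 4 arrays, the tested genes with the pattern most like that of LAMA4 were STXBP6, S100A4 and SIMC1. STXBP6, which encodes amisyn, a syntaxin-binding protein, had 7.47 and 7.58 in PC9 and 5.78 and 6.28 in MTAC-P (distance 0.20). S100A4, a calcium-binding protein, had 10.83 and 11.22 against 9.22 and 9.50 (distance 0.20). SIMC1 had 7.44 and 7.35 against 5.64 and 5.84 (distance 0.24). With 4 arrays in 2 groups, such likeness is mostly a like difference between the lines.

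LAMA5, which encodes the alpha5 chain, had nearly equal means, 7.37 ± 0.014 in PC9 and 7.41 ± 0.35 in MTAC-P (SD, n = 2). Its values were 7.38 and 7.36 in PC9 and 7.16 and 7.65 in MTAC-P, so the MTAC-P arrays lay on both sides of PC9. The difference was 0.037 (95% interval -0.46 to 0.53), and it was -0.21 without MTAC-P replicate 2. The other probe set of LAMA5 lay between 4.20 and 4.64 and differed by 0.10 (SE 0.20). LAMA1, the alpha1 chain of early embryonic basement membranes, had 3.75 and 3.91 in PC9 and 3.66 and 3.86 in MTAC-P on its single probe set. These 4 values lie under the dim value. Without the dim filter, LAMA1 differed by -0.072 (SE 0.16, limma adjusted p = 0.849). Of LAMA1, LAMA4 and LAMA5 on their brightest probe sets, only LAMA4 had arrays that did not overlap. The arrays of 53.2% of all tested genes did not overlap in either direction. The difference between LAMA4 and LAMA5 was not tested.

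The beta chains had differences of both signs. LAMB1, the beta1 chain that pairs with gamma1 in the most widespread laminins, had 9.10 and 8.77 in PC9 and 9.21 and 9.41 in MTAC-P. Both MTAC-P arrays were the higher, by 0.11 between the nearest arrays. The difference of LAMB1 was 0.38 (SE 0.18, limma adjusted p = 0.323), and its second, dimmer probe set gave 0.35 with arrays that did not overlap either. Without PC9 replicate 2 the difference was 0.21.

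LAMB2, the beta2 chain of kidney filter, nerve-muscle junction and vessel basement membranes, had 6.71 and 7.12 in PC9 and 6.23 and 6.43 in MTAC-P. The arrays did not overlap, and each line's duplicates lay 0.41 and 0.20 apart. Its difference of -0.58 (SE 0.20, 95% interval -1.06 to -0.11, limma adjusted p = 0.199) rests on a single probe set and was -0.38 without PC9 replicate 2.

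LAMB3, the beta3 chain of the laminin that anchors epithelium at hemidesmosomes, had 8.45 and 9.56 in PC9 and 9.08 and 9.45 in MTAC-P. The MTAC-P arrays lay between the PC9 arrays, and the PC9 duplicates were 1.10 apart. The difference was 0.26 (SE 0.36, 95% interval -0.61 to 1.12). It was -0.29 without PC9 replicate 1, 0.81 without PC9 replicate 2 and 0.074 without MTAC-P replicate 2, and the dimmer probe set of LAMB3 gave -0.10. No difference of LAMB3 between the lines was resolved beyond the spread of its PC9 arrays.

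LAMC1, the gamma1 chain shared by most laminins outside the hemidesmosome, had 9.12 and 8.79 in PC9 and 9.39 and 9.45 in MTAC-P. Both MTAC-P arrays were higher than both PC9 arrays, by at least 0.27. The means were 8.95 ± 0.24 and 9.42 ± 0.041 (SD, n = 2), with a difference of 0.47 (SE 0.18, 95% interval 0.039 to 0.90, limma adjusted p = 0.236). LAMC1 had 5 probe sets, the most of any chain, and 4 lay above the dim value. Those 4 all had a higher mean in MTAC-P, by 0.030 to 0.47, but among them the brightest was the only one whose arrays did not overlap. The dimmest of the 5, under the dim value, gave -0.20. The second brightest had 8.56 and 9.09 in PC9 and 8.68 and 9.02 in MTAC-P, a difference of 0.030. Averaged over its 5 probe sets, LAMC1 differed by 0.18 (SE 0.13), and without PC9 replicate 2 the brightest gave 0.30.

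**Figure D2:**
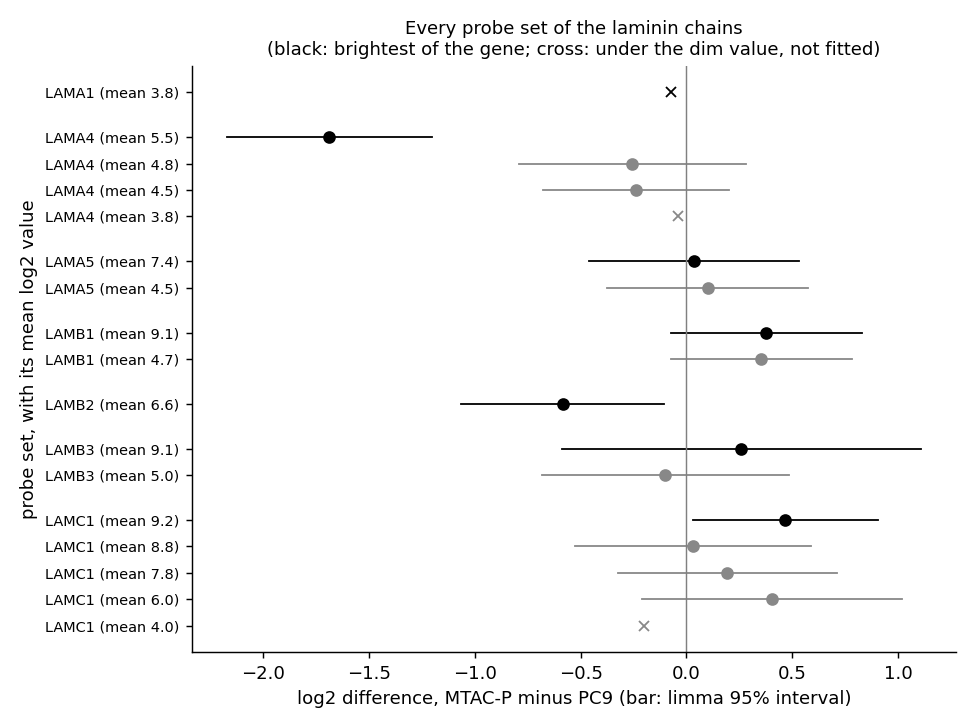
Log2 difference between the lines for each of the 17 probe sets of the chains, with limma's 95% interval from a fit of all probe sets, black for the brightest probe set of a gene and crosses for the 3 under the dim value. The brightest LAMA4 probe set, at -1.69, lies apart from the other 3, between -0.26 and -0.038, while both LAMB1 probe sets lie near 0.38 and 0.35.

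Counted over the 6 tested chains, 4 had a higher and 2 a lower mean in MTAC-P, against 8053 higher and 6917 lower of all tested genes. The arrays did not overlap for 2 chains higher in MTAC-P, LAMB1 and LAMC1, where 28.3% of tested genes were so placed. They did not overlap for 2 chains lower in MTAC-P, LAMA4 and LAMB2, where 24.9% of tested genes were. In either direction this makes 4 of 6 chains, against 53.2% of tested genes, so these counts lie near the background shares. LAMB1 and LAMC1 thus had the higher and LAMA4 and LAMB2 the lower values in MTAC-P, at differences that limma did not call. The median absolute difference was 0.42 for the chains and 0.22 for all tested genes. This rests on the brightest probe sets, and the chains were chosen with earlier results of these data known. Averaged over all probe sets, LAMA4, LAMB3 and LAMC1 differed by less, -0.56, 0.079 and 0.18. LAMB1 then differed by 0.37 and LAMA5 by 0.068, and LAMB2 has a single probe set.

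**Figure D3:**
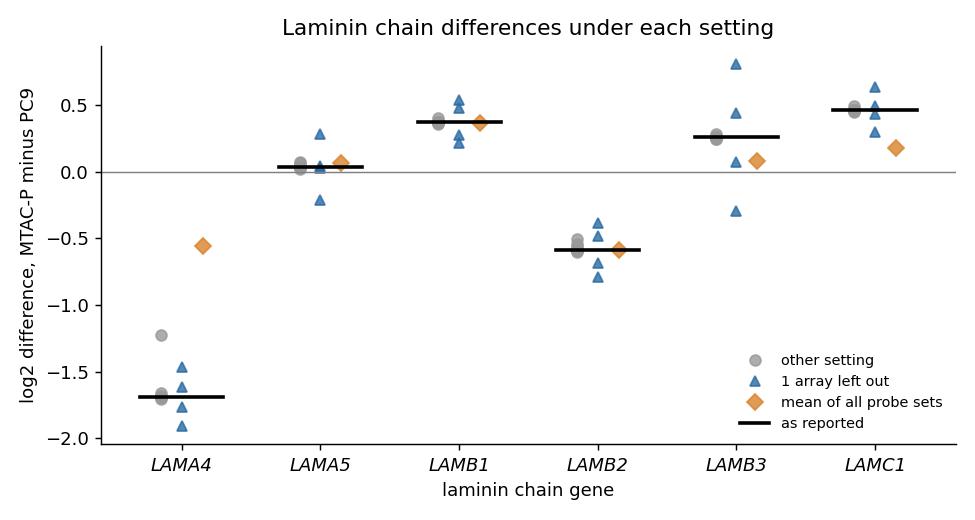
Log2 difference of each tested chain as reported (black bar), with 1 array left out (blue), averaged over the gene's probe sets (orange) and under the other settings (grey). Under these settings, which do not include the other single probe sets of LAMA4, LAMA4 lies between -1.91 and -0.56, LAMB2 stays below 0 and LAMB1 and LAMC1 above it, while LAMA5 and LAMB3 take both signs.

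The other laminin chains showed low values. Of 4 genes on this list, 3 had a probe set, and none of the 3 passed the test. LAMA2, the alpha2 chain of muscle and nerve basement membranes, had 5.18 and 5.41 in PC9 and 4.89 and 4.69 in MTAC-P, a difference of -0.50 (SE 0.17, limma adjusted p = 0.205) on 1 probe set. LAMC3 differed by 0.14 (SE 0.15). LAMB4, which lies next to LAMB1 on chromosome 7, differed by -0.074 (SE 0.16) at a mean of 4.99 in PC9.

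Among the partners of laminin in the basement membrane, 19 of 22 genes were tested, and 10 had a higher and 9 a lower mean in MTAC-P, with a median of 0.010 and 0 calls. NTN4, a netrin that binds the short arm of the gamma1 chain and disrupts laminin networks, had 6.71 and 6.44 in PC9 and 5.25 and 5.21 in MTAC-P. All NTN4 arrays of MTAC-P were lower, the difference was -1.35 (SE 0.17, limma adjusted p = 0.0971), and the second probe set gave -0.41. The type IV collagens form the other network of the basement membrane, and none of them passed the test. COL4A3 and COL4A4 lay under the dim value, with differences of -0.096 and 0.11. COL4A5 had 6.80 and 7.84 in PC9 and 6.25 and 6.61 in MTAC-P, and its difference of -0.89 (SE 0.34) was -0.37 without PC9 replicate 2. COL4A6 had 8.20 and 8.64 against 7.36 and 7.75, a difference of -0.87 (SE 0.22, limma adjusted p = 0.137), but its 7 probe sets ran from -0.87 to 0.32 and averaged -0.34.

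The more widespread type IV chains COL4A1 and COL4A2 had higher means in MTAC-P. COL4A1 differed by 0.25 (SE 0.17), with 3 probe sets between 0.22 and 0.35, and by 0.14 without MTAC-P replicate 2. COL4A2 differed by 0.51 (SE 0.19, limma adjusted p = 0.229), its 3 probe sets lay between 0.24 and 0.51, and it differed by 0.33 without MTAC-P replicate 2. The arrays did not overlap for either gene. NID1, the nidogen that links the gamma1 chain to collagen IV, lay between 4.02 and 4.88, near the dim value. HSPG2, which encodes the proteoglycan perlecan, differed by -0.24 (SE 0.18), and its other probe set had the opposite sign.

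**Figure D4:**
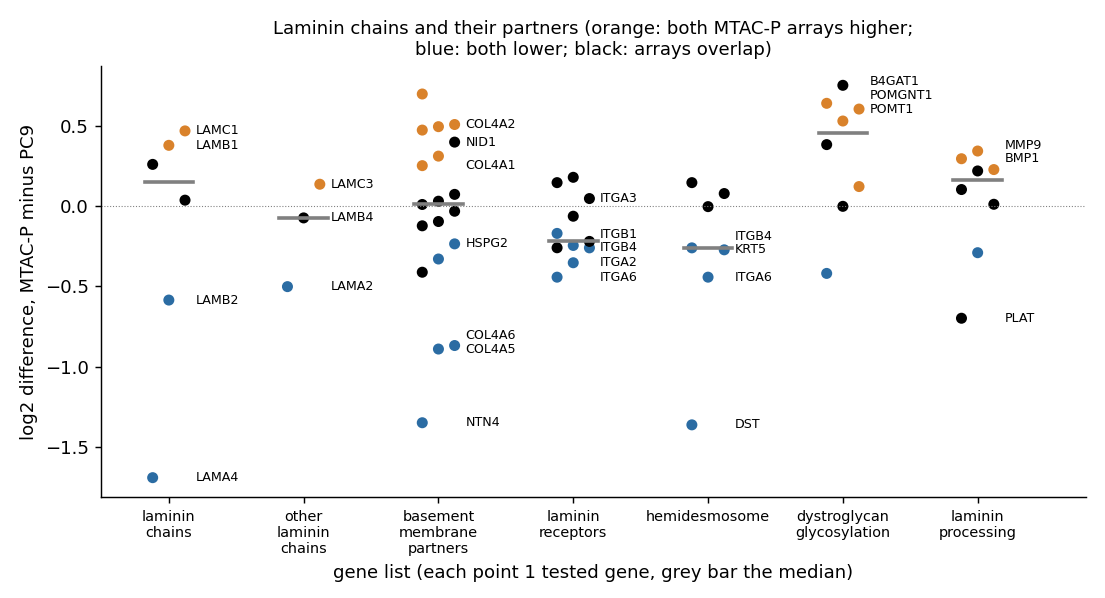
Log2 difference between the lines for each tested gene of the laminin chains and of 6 lists of related genes, with grey bars at the medians, orange where both MTAC-P arrays were higher, blue where both were lower and black where arrays overlapped. LAMA4 at -1.69, DST at -1.36 and NTN4 at -1.35 lie lowest, and the dystroglycan glycosylation list has the highest median, 0.46.

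Of 15 laminin receptor genes, 13 had a probe set and 11 were tested, of which 3 had a higher and 8 a lower mean in MTAC-P, with a median of -0.22 and 0 calls. Arrays did not overlap for 5 of the 11, all lower in MTAC-P, and 24.9% of all tested genes were so placed. In either direction the arrays of 53.2% of all tested genes did not overlap, so 5 of 11 is not above that share. None of the 11 had an unadjusted limma p under 0.05. ITGB1, the beta1 integrin subunit that most laminin-binding integrins share, differed by -0.24 (SE 0.16). ITGA3, the alpha3 subunit, had values of 7.75 and 7.72 in PC9 and 7.73 and 7.84 in MTAC-P, a difference of 0.047. ITGA6, the alpha6 subunit, had 10.91 and 11.25 in PC9 and 10.87 and 10.41 in MTAC-P, a difference of -0.44 (SE 0.22). The 3 probe sets of ITGA6 lay between -0.46 and -0.26, and the difference was -0.21 without MTAC-P replicate 2. The collagen and laminin receptor subunit ITGA2 differed by -0.35 (SE 0.16) with 2 probe sets alike. ITGB4, the beta4 subunit that pairs with alpha6 in hemidesmosomes, differed by -0.26 (SE 0.17), but 5 of its 7 probe sets above the dim value had the opposite sign.

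In the hemidesmosome list 7 of 8 genes were tested, 2 with a higher and 5 with a lower mean in MTAC-P, with a median of -0.26 and 0 calls. ITGA6, ITGB4 and CD151 are also on the receptor list, so the 2 lists are not separate, and the median is the value of ITGB4. DST, the locus of the plakin that ties hemidesmosomes to keratin filaments, had 7.03 and 6.25 in PC9 and 5.87 and 4.70 in MTAC-P. Its arrays did not overlap, although the MTAC-P duplicates lay 1.17 apart. The difference of DST was -1.36 (SE 0.42, limma adjusted p = 0.175), was -0.78 without MTAC-P replicate 2 and averaged -0.42 over its 8 probe sets. KRT5, a basal keratin, differed by -0.27 (SE 0.17) and lay at 4.82 or below on all arrays.

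Dystroglycan binds laminin through a sugar chain that a series of enzymes builds. Of 13 genes for these enzymes, 8 were tested, 6 with a higher and 2 with a lower mean in MTAC-P, a median of 0.46 and 0 calls. An unadjusted limma p under 0.05 was found for 3 of the 8, all higher in MTAC-P. Of all tested genes 18.9% had one in either direction, 7.76% with a higher mean. The same count was 4 higher and 3 lower among the 19 basement membrane partners. It was 1 lower among the 7 hemidesmosome genes and 1 lower among the 3 other laminin chains. The 11 receptors and the 8 processing genes had 0. POMGNT1, which extends the mannose of the core, had 8.93 and 8.99 in PC9 and 9.58 and 9.62 in MTAC-P. Its difference was 0.64 (SE 0.15, limma adjusted p = 0.128), and all 4 of its probe sets lay between 0.64 and 0.92. POMT1, part of the enzyme that adds the first mannose, had 8.35 and 8.26 against 8.95 and 8.87, a difference of 0.60 (SE 0.15), with 8 probe sets from -0.28 to 0.60 that averaged 0.24. B4GAT1, which primes the chain that laminin binds, differed by 0.75 (SE 0.39) with overlapping arrays, and by 0.28 without MTAC-P replicate 2.

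Laminin chains are trimmed after secretion by proteases. Of 9 such genes, 8 were tested, 6 with a higher and 2 with a lower mean in MTAC-P, a median of 0.16 and 0 calls. PLAT, the tissue plasminogen activator, had 8.07 and 8.49 in PC9 and 6.90 and 8.26 in MTAC-P, and its difference of -0.70 (SE 0.42) was -0.021 without MTAC-P replicate 1. MMP9, a gelatinase, differed by 0.34 (SE 0.20) and BMP1, a procollagen protease that also cuts laminin chains, by 0.29 (SE 0.18), and 2 of the 5 BMP1 probe sets had the opposite sign. Without MTAC-P replicate 2, MMP9 differed by 0.11 and BMP1 by 0.13.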

How the data were processed

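The authors deposited log2 expression values for each probe set on each array; that they are log2 is a reading of their range, 3.32 to 14.6. Per the labels' protocols, RNA was labelled with Cy3 using a one-colour Agilent kit, and Agilent Feature Extraction 10.7 appears in the submitters' processing notes, whereas the probe-set names follow Affymetrix conventions; background correction, normalization and summarization are not given in the sources used here. Array medians ran from 4.85 to 4.88, so no scaling was added.

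Of 49386 probe sets, 45253 have 1 symbol, 1327 have several, 2713 are unnamed here and 93 are controls. Symbols were updated by gene identifier to RefSeq (GRCh38.p14). Genes were represented by their brightest probe set and left out under the 25th percentile. MTAC-P was set against PC9 by a 2-sided limma test (version 3.58.1, R 4.3.3; lmFit, eBayes), with Benjamini-Hochberg adjustment over 14970 genes and a threshold of 0.05. The small number of arrays limits the precision: the lowest 2-sided p of an exact permutation test is 0.333 with 2 against 2, and the labels do not say whether duplicates are separate cultures, so p-values measure a spread that may be technical. In 20 simulated data sets of this comparison over 14970 genes, the test recovered 27.6% of log2 changes of 1, 94.3% of changes of 2 and 98.9% of changes of 3. Those data had normal errors, independent between arrays and genes, and no change in most genes. In the real arrays, replicate 1 minus replicate 2 correlated at 0.28 between the lines, and 3 genes passed. The recovered shares therefore need not hold here.

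The chains and lists were chosen with earlier results of these data known, so no p was adjusted over a list. Named list genes are the 3 with the largest difference per list and ITGA3, ITGA6, ITGB1, ITGB4, COL4A1, COL4A2, NID1 and HSPG2. The alternatives tried were a replicate block, 2 centrings, quantile normalization, other dim filters, averaged probe sets, a test without moderation, a trended or a robust prior variance, a pseudocount of 16, leaving out each array, a threshold of 0.01 and a test of each probe set; the other LAMA4 probe sets were added after seeing the data. Figures used matplotlib 3.10.9.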

Additional observations from a re-analysis of the deposited data

How the results depend on the processing

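Over all tested genes, 3 passed the adjusted p threshold as reported. With limma and the replicate block 2079 passed. The replicate numbers are not said to pair the arrays, the block leaves 1 residual degree of freedom, and replicate 1 minus replicate 2 correlated at 0.28 between the lines over 14970 genes, which are not independent. With that block LAMA4 and LAMB2 passed at unmoved differences of -1.69 and -0.58 (limma adjusted p = 1.9e-07 and 0.0303). The count was 77 with a variance trend, where LAMA4 at -1.69 passed. It was 1 with the 50th percentile filter, with the pseudocount of 16 and with each probe set tested. With limma 0 passed with the mean of all probe sets (2667 at an unadjusted p under 0.05), in the unmoderated test (1655) and at the threshold of 0.01 (2823). Leaving out 1 array gave from 0 to 68 genes: 68 without PC9 replicate 1, 4 without PC9 replicate 2, and 0 without MTAC-P replicate 1 (3434 at an unadjusted p under 0.05) or replicate 2 (2012). It moved LAMA4 between -1.91 and -1.47, LAMA5 between -0.21 and 0.29, LAMB1 between 0.21 and 0.54, LAMB2 between -0.79 and -0.38, LAMB3 between -0.29 and 0.81, LAMC1 between 0.30 and 0.64, and the median of the chains between -0.12 and 0.37. LAMA5 turned sign without MTAC-P replicate 2, and LAMB3 without PC9 replicate 1. Over the alternatives the limma adjusted p of LAMB2 ran from 0.0303 to 0.626. The cause of these shifts was not tested. LAMA5, LAMB1, LAMB3 and LAMC1 passed under none of their 16 alternatives. Signals near the dim value limit LAMA1, the dimmer LAMA4 probe sets and the MTAC-P level of LAMA4.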

Other observations

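The genes next to each laminin gene on its chromosome, taken as the nearest 2 tested genes on each side in RefSeq's order, gave values of both signs. LAMA4 lies on chromosome 6 between FAM229B and RFPL4B. FAM229B differed by 0.36 and RFPL4B by -0.064, while the next genes outward, TUBE1 and MARCKS, differed by -0.22 and -0.024. None of the 4 neighbours came near the -1.69 of LAMA4. RFPL4B had means of 4.26 in PC9 and 4.19 in MTAC-P, near the dim value and too low to show a fall of that size. LAMB2 lies on chromosome 3 between USP19, at 0.21, and CCDC71, at 0.82, whose arrays did not overlap and which had the opposite sign to LAMB2. LAMB1 lies on chromosome 7 next to DLD, which encodes a subunit of mitochondrial dehydrogenase complexes and differed by -0.61 where LAMB1 differed by 0.38. LAMC1 lies on chromosome 1 between the helicase gene DHX9, at 0.25, and NMNAT2, at -0.36. LAMB3, also on chromosome 1, lies between MIR205HG, at -0.14, and G0S2, at 0.11. None of these neighbours passed limma's adjusted p threshold.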
